A study of Mus musculus with 11 samples.

Results

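RNA levels of 49 genes that encode chromatin remodelers and histone chaperones were examined in adult mouse testes with and without Ccer1. The members were chosen by name, as the measured genes of the CHD, SWI/SNF, ISWI and INO80 families of remodelers and of the histone chaperones, out of 22259 genes in the files. All 49 were found and all 49 passed the filter on low counts, which 15139 genes passed. The Ccer1-/- group held 3 testis libraries of untreated mice that carry a frameshift deletion made with CRISPR-Cas9 in every cell of the body, and the Ccer1+/+ group held 3 testis libraries of untreated wild-type mice. The study made several deletion lines and chose one of them for its later work on pathology, but the sources used here do not tie these libraries to a line by name. The libraries were made from polyadenylated RNA with random priming, and each value averages over all the germ cells and somatic cells of a testis. The sources speak of independent samples, and the p values measure the spread between these libraries.

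Chromatin remodelers are ATPases, mostly held in large complexes, that slide, evict or exchange the histone octamers on DNA. Histone chaperones bind histones that are not on DNA and hand them over for assembly or take them away. In the testis they meet a task found nowhere else in the body, because the nucleosomes of spermatids are dismantled and their histones give way to transition proteins and then to protamines. CHD5 is known to be needed for this step in mice, and NASP was first described as a histone-binding protein of germ cells.

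Ccer1, the targeted gene, was at 82.1, 93.0 and 88.3 CPM in Ccer1-/- replicates 1, 2 and 3, against 439, 610 and 529 CPM in Ccer1+/+ replicates 1, 2 and 3 (CPM is a count divided by the library's total after adjustment with TMM, which takes the scale from the bulk of the genes). Replicates are given in this order throughout. Ccer1 fell with a log2 fold change (Ccer1-/- over Ccer1+/+) of -2.58 (standard error 0.15) and an adjusted p of 0.000735 from edgeR's quasi-likelihood test. Tnp1, Tnp2, Prm1 and Prm2, which encode the transition proteins and protamines, had log2 fold changes between -1.73 and -0.73 without overlap of the genotypes. Their means in Ccer1-/- were 30.1% to 60.3% of those in Ccer1+/+. In the same test the unadjusted p ran from 0.00012 to 0.00102, and the adjusted p was 0.786 each. The paper reports lower transcript and protein levels of these genes in Ccer1-/- testes. Each library held 15970289 to 16552947 counts in Ccer1-/- and 16259579 to 19621550 counts in Ccer1+/+. The Ccer1+/+ libraries did not form a close group. Over the log2 CPM of the tested genes, the mean Pearson correlation of Ccer1+/+ replicate 1 was 0.985 with Ccer1-/- libraries, but 0.963 with its own group. For Ccer1+/+ replicates 2 and 3 it was 0.967 and 0.972 with Ccer1-/- libraries. With their own group, which includes replicate 1, it was 0.968 and 0.970. The summed CPM of marker lists for spermatogonia, spermatocytes, round spermatids, elongating spermatids, Sertoli, Leydig, myoid, endothelial and blood cells and macrophages overlapped between the genotypes. Those for epididymis did not, with a sum of 4.91 to 6.20 CPM in Ccer1-/- and 4.45 to 4.65 CPM in Ccer1+/+, and 4 of these 5 markers were under 1 CPM in every library. The part of epididymal cells in the results was not tested. The 8 spermatocyte markers summed to 2347 to 2809 CPM in Ccer1-/- and 2250 to 2902 CPM in Ccer1+/+, and the 8 elongating spermatid markers to 10488 to 10868 CPM in Ccer1-/- and 9812 to 10947 CPM in Ccer1+/+.

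The genotypes did not separate the members. At an adjusted p under 0.05 from edgeR, 0 members were higher in Ccer1-/- testes, where 0% of all 15139 genes were, and 0 were lower, where 0.00661% were, which is Ccer1 alone. DESeq2 also called 0 members. At an unadjusted p under 0.05, 0 members were higher against 1.62% of all genes, and 1 member, Chd5, was lower against 1.27% of all genes. The log2 fold changes of the members ran from -0.29 to 0.63 with a median of 0.03, beside a median of 0.04 over all genes tested. The 3 libraries of one genotype lay wholly above the other in 0 members, against 5.2% of all genes for Ccer1-/- above, and in 2 members, Chd5 and Srcap, for Ccer1-/- below, against 3.14% of all genes. The 95% interval of the fold change lay inside 1.5-fold in either direction for 30 members, or 61.2%, beside 34.5% of all genes. Intervals of the members were also narrower. The distance from the estimate to an end had a median of 0.36 over the members and 0.49 over all genes (log2 scale). The higher share is therefore not read as a steadier level of the members. For these 30 members a larger difference than 1.5-fold lay outside the interval. The other 19, among them Atrx, Smarca1, Asf1a and Nasp, had intervals that reach past it. In a whole testis, fewer cells of a type and less RNA per cell cannot be told apart, so each value is a level in the tissue.

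The main separation of the libraries was Ccer1+/+ replicates 2 and 3 against the other 4, and the base composition of the transcripts went with it. In principal components of the log2 CPM of the tested genes, this was the first axis, with 43.1% of the variance. A second axis, with 31.5%, parted replicate 3 of Ccer1-/- and of Ccer1+/+ (39.8 and 32.2) from the other 4 libraries (-33.9 to -4.32). Ccer1+/+ replicates 2 and 3 were both above the other 4 libraries in 11 members (21.3% of all genes). They were both below the other 4 in 18 members (27.8% of all genes). For 27 members (49.4% of all genes), Ccer1+/+ replicate 1 fell between the lowest and the highest Ccer1-/- library. The GC content of the transcript had a median of 43.5% (38.6% to 53.6%) over the 18 members below, among them Asf1a and Atrx, and of 56.1% (47.2% to 60.5%) over the 11 above, among them Chd5 and Chaf1a, so the ranges overlapped. To show this contrast, the middle 150 bases of the coding sequence are given for 4 members. Among the 14 members named by the rule given under the processing, 2 have the most and 2 the least G and C in the transcript. They are not the extremes of all 49, since Ino80b (60.5%) is above Chd5 and Smarca1 (39.47%) is below Atrx (39.54%). The stretches are read 5′ to 3′ from the GENCODE M1 transcripts of build NCBIM37, with every G and C in capitals.
Chd5: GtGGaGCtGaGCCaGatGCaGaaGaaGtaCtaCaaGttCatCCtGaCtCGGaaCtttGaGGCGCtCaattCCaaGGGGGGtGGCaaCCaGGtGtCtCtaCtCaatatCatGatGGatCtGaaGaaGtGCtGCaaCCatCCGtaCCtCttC
Chaf1a: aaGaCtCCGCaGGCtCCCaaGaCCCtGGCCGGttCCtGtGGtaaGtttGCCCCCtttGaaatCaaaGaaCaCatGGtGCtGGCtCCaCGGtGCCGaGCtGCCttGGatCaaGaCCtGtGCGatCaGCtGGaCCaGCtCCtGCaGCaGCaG
Asf1a: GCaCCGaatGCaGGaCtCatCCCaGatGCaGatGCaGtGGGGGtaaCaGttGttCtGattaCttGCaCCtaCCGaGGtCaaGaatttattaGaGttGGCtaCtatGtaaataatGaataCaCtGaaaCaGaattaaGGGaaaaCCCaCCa
Atrx: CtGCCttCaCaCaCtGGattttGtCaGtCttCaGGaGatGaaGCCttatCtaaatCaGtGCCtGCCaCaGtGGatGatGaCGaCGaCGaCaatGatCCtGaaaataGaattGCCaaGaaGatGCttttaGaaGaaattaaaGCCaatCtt
These are bases 2854 to 3003 of the Chd5, 1294 to 1443 of the Chaf1a, 232 to 381 of the Asf1a and 3640 to 3789 of the Atrx coding sequence, counted from the start codon. G and C made up 50.0% of the Chd5 stretch, 58.7% of the Chaf1a stretch, 42.7% of the Asf1a stretch and 41.3% of the Atrx stretch, and over the whole transcripts they made up 57.4%, 56.7%, 38.6% and 39.5% in the same order. In GRCm38, the build of the files, Chd5 lies on chromosome 4 from 152338646 to 152390194, Chaf1a on chromosome 17 from 56040416 to 56068026, Asf1a on chromosome 10 from 53596961 to 53609225 and Atrx on chromosome X from 105797615 to 105929372.

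Across the 49 members, the log2 difference of Ccer1+/+ replicate 1 from the mean of Ccer1+/+ replicates 2 and 3 had a Spearman's rho of -0.81 with the GC content of the transcript and of 0.27 with its length. The log2 fold change between the genotypes had a rho of -0.77 with GC content across the same members. Over the 14460 tested genes with a transcript these 3 values were -0.68, 0.22 and -0.60, so the members shared a relation that ran through the whole data set. Genes are not independent replicates, all points come from the same 6 libraries, and no p is given. The part of base composition in the fold changes was not tested. Where values below are given with a smooth curve on GC content and length removed from each library, the relation to GC content is taken out by construction.

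**Figure D1:**
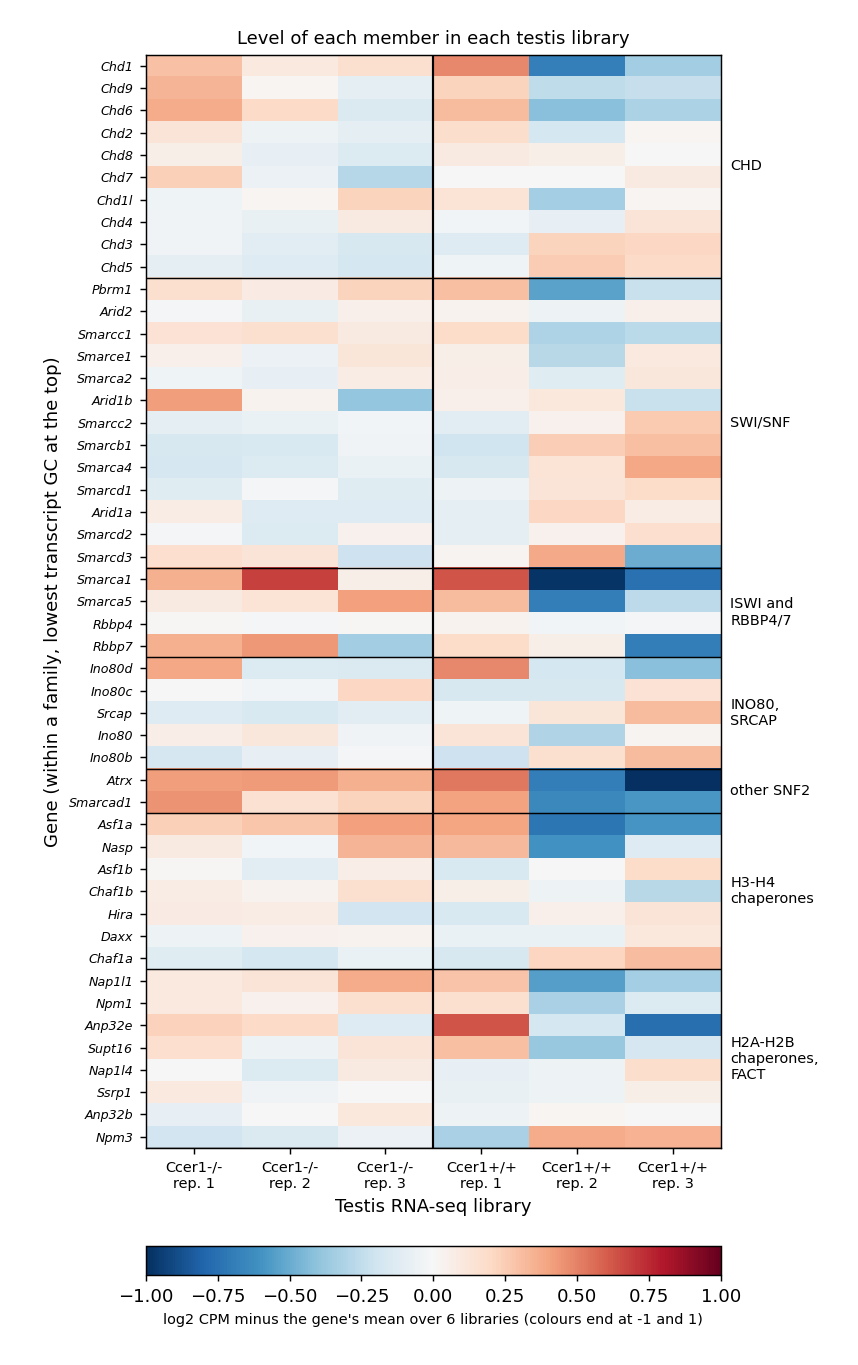
Heat map of the 49 members in the 6 testis libraries, with Ccer1-/- libraries left and Ccer1+/+ libraries right. Colour gives the log2 CPM of a gene minus its mean over the 6 libraries, and genes run from low to high GC content within each family. Ccer1+/+ replicate 1 resembles the Ccer1-/- columns, while Ccer1+/+ replicates 2 and 3 are low for genes such as Atrx and Smarca1 and high for genes such as Npm3 and Chaf1a.

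The CHD family has 10 members here. CHD3, CHD4 and CHD5 are the alternative ATPases of the NuRD complex, which couples remodeling to histone deacetylation, CHD1 and CHD2 act at transcribed genes, and CHD7 and CHD8 act at enhancers and promoters. Chd5 was at 727, 707 and 684 CPM in Ccer1-/- libraries, against 752, 924 and 883 CPM in Ccer1+/+ libraries. All 3 Ccer1-/- values were below all 3 Ccer1+/+ values, but Ccer1+/+ replicate 1 was close to the highest Ccer1-/- library and the gap came from the other two. The mean of Chd5 was 706 ± 21.7 CPM over Ccer1-/- libraries, against 853 ± 89.9 CPM over Ccer1+/+ libraries (SD, n = 3 each). The log2 fold change was -0.27 (95% interval -0.54 to -0.01, adjusted p = 0.786, edgeR). Without Ccer1+/+ replicate 1 it was -0.43 with an adjusted p of 0.00641 from edgeR. That library was singled out in these same values as near the Ccer1-/- libraries, so this p is not read as support for a change. With the curve on GC content and length removed, the log2 fold change of Chd5 was -0.06.

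Chd5 also had the highest level of the family per length of transcript, 82.2 CPM per kilobase over the 6 libraries. Chd4 followed with 56.4 and Chd1l, an ATPase activated by poly(ADP-ribose), with 43.1 CPM per kilobase, while Chd6, Chd7 and Chd9 were at 1.07 to 1.66 CPM per kilobase. Among the NuRD ATPases, Chd5 exceeded Chd4 per length in every library, by 1.21 to 1.39 times in Ccer1-/- and 1.43 to 1.84 times in Ccer1+/+. Chd4 itself did not pass the test, with a log2 fold change of -0.02 and a 95% interval from -0.27 to 0.24. Chd3 had a log2 fold change of -0.21 and Chd1 of 0.28, and their adjusted p values were 0.786 and 0.798. Over the family, log2 fold changes ran from -0.27 to 0.28, 4 of them positive and 6 negative.

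**Figure D2:**
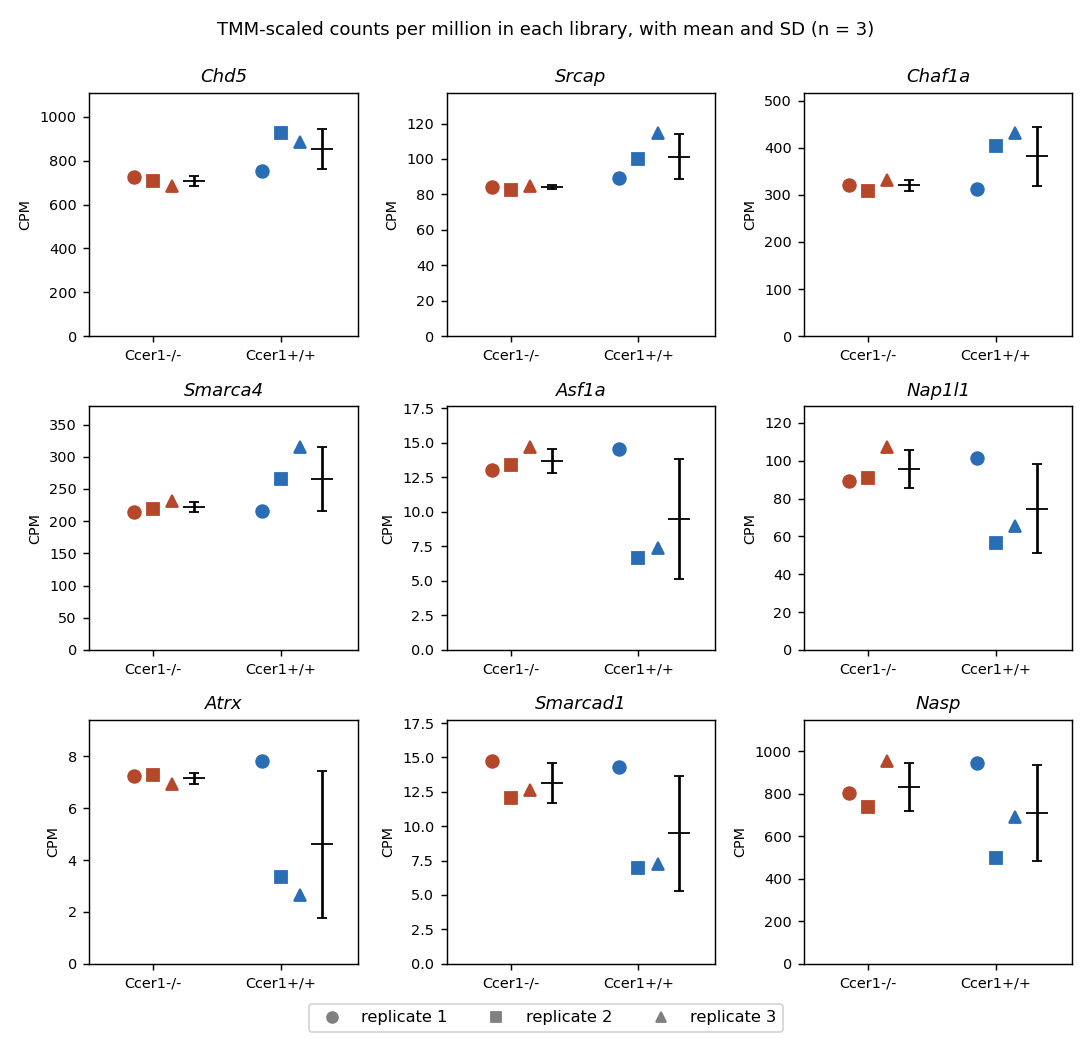
TMM-scaled counts (CPM) of 9 members in each library, with Ccer1-/- left and Ccer1+/+ right. Marker shapes give the replicate, and the bar gives the mean and SD of 3 libraries. Chd5 and Srcap are the members whose genotypes do not overlap. In the other 7 panels Ccer1+/+ replicate 1 lies among or next to the Ccer1-/- libraries.

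SWI/SNF complexes, called BAF or PBAF in mammals, are built around one of 2 ATPases, BRM (Smarca2) or BRG1 (Smarca4). The family counted 13 members, of which 0 passed the adjusted test, with log2 fold changes between -0.26 and 0.26 and a median of -0.04. Smarca2, the member with the highest level per length at 63.9 CPM per kilobase, was at 366, 355 and 397 CPM in Ccer1-/- libraries, against 394, 346 and 408 CPM in Ccer1+/+ libraries. The genotypes overlapped, and the log2 fold change was -0.04 (95% interval -0.30 to 0.22). Smarca4, the member with the smallest p of the family, was at 215, 220 and 231 CPM in Ccer1-/- libraries, against 216, 266 and 315 CPM in Ccer1+/+ libraries. Ccer1+/+ replicate 1 sat within the Ccer1-/- values, and the log2 fold change was -0.26 (adjusted p = 0.786, edgeR).

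Among the 11 core and accessory subunits of SWI/SNF, Ccer1+/+ replicates 2 and 3 were both above the other 4 libraries in 4 (Smarcb1, Smarcc2, Smarcd1 and Arid1a), both below them in 2 (Smarcc1 and Pbrm1) and neither in 5. Smarcc1 and Smarcc2 encode the paired scaffold subunits BAF155 and BAF170. The ratio of Smarcc2 to Smarcc1 counts was 3.94, 3.99 and 4.29 in Ccer1-/- libraries, against 3.80, 5.95 and 6.73 in Ccer1+/+ libraries. A ratio inside one library does not depend on the scaling between libraries, and here again the high values were Ccer1+/+ replicates 2 and 3. Smarcb1, which encodes the SNF5 core subunit, had a log2 fold change of -0.25, and Smarcc1 had one of 0.25, with an adjusted p of 0.786 for both. Per length, Arid2, which marks the PBAF complex, was at 43.1 CPM per kilobase, which is 2.73 to 3.67 times Arid1a, a subunit of the canonical BAF complex, in every library. Pbrm1, the PBAF subunit polybromo, was at 4.95 CPM per kilobase, and Arid2 exceeded it 7.87 to 7.96 times in Ccer1-/- libraries and 7.38 to 12.4 times in Ccer1+/+ libraries. Smarcd3, a BAF60 subunit known from heart and muscle, had 34 to 62 counts in a library, the fewest of all members in every library but Ccer1+/+ replicate 2, where Smarca1 had 42 and Atrx 54.

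**Figure D3:**
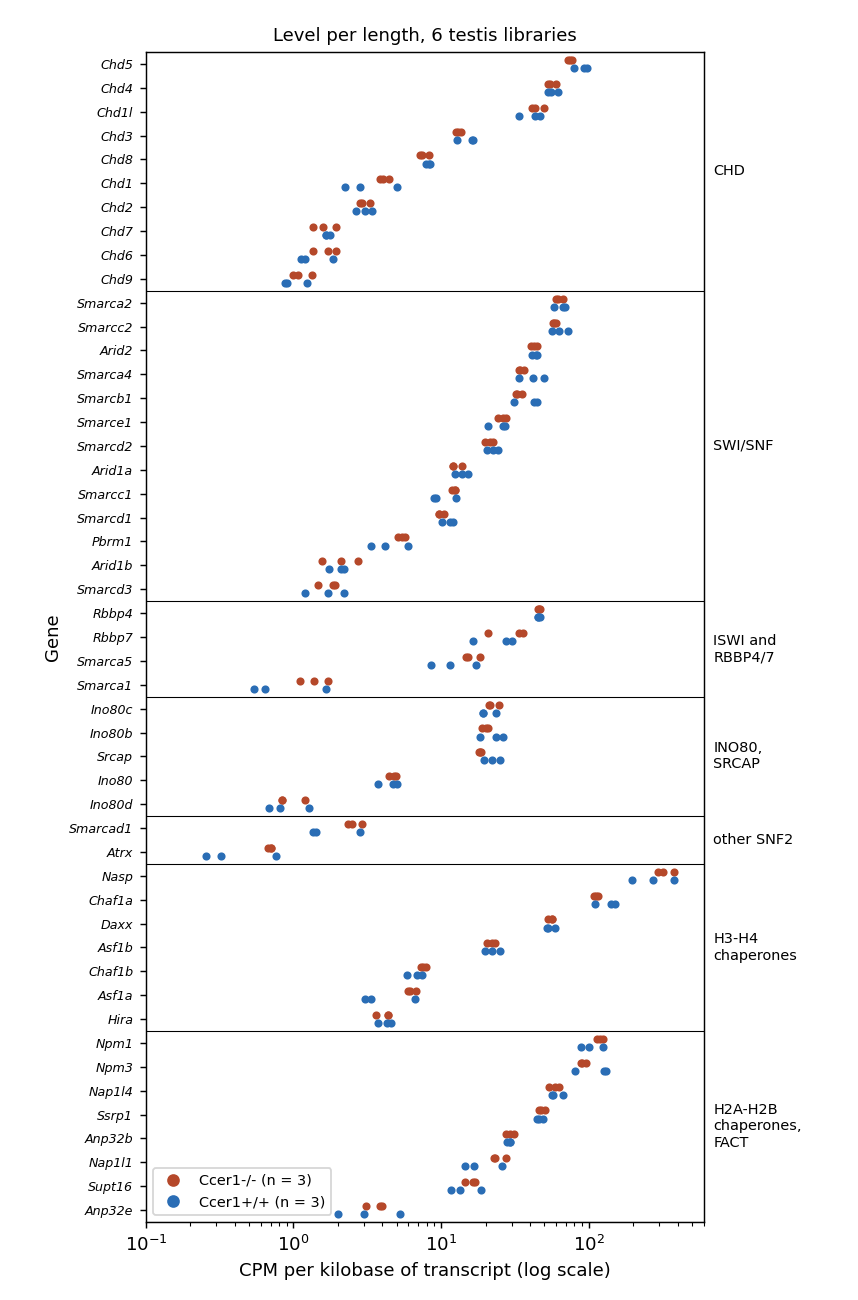
Level per kilobase of the longest annotated coding transcript for each member on a log axis, with the 3 Ccer1-/- libraries drawn above the 3 Ccer1+/+ libraries of each gene. The 49 members span a wide range, from 0.572 for Atrx to 306 for Nasp in CPM per kilobase over the 6 libraries, while the genotypes of a gene lie close together.

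ISWI remodelers space nucleosomes evenly, with SNF2H (Smarca5) or SNF2L (Smarca1) as the ATPase, and RBBP4 and RBBP7 are histone-binding proteins shared by ISWI, NuRD and CAF-1 complexes. Rbbp4 was the highest of these 4 members per length, at 46.1 CPM per kilobase. It was at 204, 201 and 205 CPM in Ccer1-/- libraries, against 208, 200 and 201 CPM in Ccer1+/+ libraries. These values differed by a few percent at most, with a log2 fold change of 0.01 (95% interval -0.23 to 0.24), although some of its counts in the files were not whole numbers, as for reads shared between genes. Smarca5 was at 89.8, 93.1 and 113 CPM in Ccer1-/- libraries, against 105, 52.4 and 70.5 CPM in Ccer1+/+ libraries. Ccer1+/+ replicates 2 and 3 were below the other 4 libraries, and the log2 fold change of 0.37 did not pass the test (adjusted p = 0.786, edgeR). Smarca1, given in full after its values were seen, was at 6.58, 8.26 and 5.34 CPM in Ccer1-/- libraries, against 7.98, 2.60 and 3.06 CPM in Ccer1+/+ libraries. As for Smarca5, Ccer1+/+ replicates 2 and 3 were below the other 4 libraries. Smarca1 had 42 to 160 counts in a library, and its log2 fold change was 0.55 (standard error 0.42). Per length Smarca5 exceeded Smarca1 by 8.85 to 16.6 times in Ccer1-/- libraries and 10.4 to 18.1 times in Ccer1+/+ libraries.

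Rbbp7, singled out after its values were seen, differed between replicates more than between genotypes. It was at 76.0, 80.0 and 46.7 CPM in Ccer1-/- libraries, against 67.4, 61.9 and 36.8 CPM in Ccer1+/+ libraries. Replicate 3 was the lowest of each genotype. Replicate 3 of each genotype was the lowest for 7 members (19.8% of all genes) and the highest for 14 members (14.8% of all genes). In the same libraries the 8 Sertoli cell markers summed to 1358, 1325 and 975 CPM in Ccer1-/- and 1206, 1402 and 930 CPM in Ccer1+/+. Myoid markers summed to 99.3, 109 and 32.5 CPM in Ccer1-/- and 82.2, 133 and 32.3 CPM in Ccer1+/+. Sums for macrophages, spermatogonia and endothelial cells were also lowest in replicate 3 of each genotype. That for spermatocytes was highest there, and the other lists were neither in both genotypes. The part of cell makeup in the Rbbp7 values was not tested.

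The INO80 and SRCAP remodelers handle the histone variant H2A.Z, which SRCAP puts into nucleosomes. Srcap was at 84.0, 82.8 and 85.0 CPM in Ccer1-/- libraries, against 89.4, 100 and 114 CPM in Ccer1+/+ libraries. All 3 Ccer1-/- values were below all 3 Ccer1+/+ values, with Ccer1+/+ replicate 1 the nearest. The log2 fold change was -0.27 (95% interval -0.57 to 0.02, adjusted p = 0.786, edgeR). With the curve on GC content and length removed, the log2 fold change of Srcap was -0.42 (unadjusted p = 0.0303, adjusted p = 0.999, edgeR). The transcript model used for that curve has 4545 bases, which is shorter than the known Srcap messenger RNA, and some counts of Srcap were not whole numbers, so both its GC content and its count carry an added uncertainty.

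Ino80c, which encodes a small subunit of the INO80 complex, had the highest level per length of this family, at 21.5 CPM per kilobase. It was at 53.6, 52.5 and 61.8 CPM in Ccer1-/- libraries, against 48.0, 48.0 and 59.1 CPM in Ccer1+/+ libraries. The genotypes overlapped through replicate 3 of Ccer1+/+, and the log2 fold change was 0.12 (95% interval -0.21 to 0.44). Ino80, the ATPase, had a log2 fold change of 0.08, Ino80b of -0.19 and Ino80d of 0.04, and none passed the test.

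SMARCAD1 helps to restore silent chromatin behind the replication fork, and ATRX works with the chaperone DAXX to place histone H3.3 at telomeres and pericentromeric repeats. Atrx was at 7.25, 7.29 and 6.92 CPM in Ccer1-/- libraries, against 7.83, 3.34 and 2.63 CPM in Ccer1+/+ libraries. Smarcad1 was at 14.8, 12.0 and 12.6 CPM in Ccer1-/- libraries, against 14.3, 6.92 and 7.22 CPM in Ccer1+/+ libraries. In both genes Ccer1+/+ replicates 2 and 3 were below the other 4 libraries, and Ccer1+/+ replicate 1 was level with the Ccer1-/- libraries. The log2 fold change of Atrx, 0.63, was the largest of all members (standard error 0.38, adjusted p = 0.786, edgeR), and that of Smarcad1 was 0.46 (standard error 0.29). Atrx rested on 43 to 157 counts in a library. It had the lowest level per length of all members, 0.572 CPM per kilobase, and its partner Daxx exceeded it per length 75.2 to 83.7 times in Ccer1-/- libraries and 69.0 to 231 times in Ccer1+/+ libraries. Atrx, Smarca1 and Rbbp7 are the members on chromosome X, which is silenced during male meiosis.

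Of 7 chaperones of histones H3 and H4, 0 passed the adjusted test. NASP keeps a soluble store of H3 and H4, CAF-1 (Chaf1a and Chaf1b) places them behind the replication fork, HIRA and DAXX place the variant H3.3, and ASF1A and ASF1B pass H3-H4 dimers on to these factors. Nasp had the highest level per length of all members, 306 CPM per kilobase. It was at 803, 739 and 956 CPM in Ccer1-/- libraries, against 946, 496 and 691 CPM in Ccer1+/+ libraries. The genotypes overlapped, since Ccer1+/+ replicate 1 reached the upper Ccer1-/- values, and the log2 fold change was 0.23 (95% interval -0.27 to 0.73). Asf1a, the member with a positive change that had the smallest p, was at 13.0, 13.4 and 14.7 CPM in Ccer1-/- libraries, against 14.5, 6.68 and 7.35 CPM in Ccer1+/+ libraries. Ccer1+/+ replicate 1 lay inside the Ccer1-/- range and Ccer1+/+ replicates 2 and 3 were below all other libraries. The log2 fold change was 0.52 (adjusted p = 0.786, edgeR).

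Chaf1a, the large subunit of CAF-1, was at 320, 308 and 331 CPM in Ccer1-/- libraries, against 312, 403 and 430 CPM in Ccer1+/+ libraries. It ran opposite to Asf1a, with Ccer1+/+ replicates 2 and 3 above the other 4 libraries and replicate 1 inside the Ccer1-/- range. Its log2 fold change was -0.25 (adjusted p = 0.786, edgeR). Per length Chaf1a exceeded its partner Chaf1b 14.6 to 15.0 times in Ccer1-/- libraries and 14.8 to 25.8 times in Ccer1+/+ libraries. Asf1b, the copy linked to dividing cells, exceeded Asf1a per length 3.33 to 3.73 times in Ccer1-/- libraries and 2.99 to 7.44 times in Ccer1+/+ libraries, while its own log2 fold change was -0.02. Daxx and Hira had log2 fold changes of 0.02 and -0.02, with 95% intervals from -0.24 to 0.28 and from -0.40 to 0.36.

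Among the 8 chaperones of H2A and H2B and subunits of FACT, log2 fold changes ran from -0.29 to 0.36 with a median of 0.07. Nap1l1 and Nap1l4 encode nucleosome assembly proteins that carry H2A-H2B dimers. Nap1l1 was at 89.1, 91.1 and 107 CPM in Ccer1-/- libraries, against 101, 56.8 and 65.8 CPM in Ccer1+/+ libraries. Only Ccer1+/+ replicates 2 and 3 stood low, and the log2 fold change was 0.36 (adjusted p = 0.786, edgeR). The log2 fold change of Nap1l4 was -0.03. Npm1, the nucleolar chaperone nucleophosmin, was the highest of these 8 per length at 112 CPM per kilobase. It was at 194, 187 and 203 CPM in Ccer1-/- libraries, against 203, 145 and 165 CPM in Ccer1+/+ libraries. Ccer1+/+ replicate 1 was level with the highest Ccer1-/- library, and the log2 fold change was 0.19 (standard error 0.14).

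Npm3, a relative of nucleophosmin, had the most negative log2 fold change of all members, -0.29 (standard error 0.19, adjusted p = 0.786, edgeR), and is given in full for that reason. It was at 78.3, 80.6 and 85.8 CPM in Ccer1-/- libraries, against 71.2, 116 and 113 CPM in Ccer1+/+ libraries. Ccer1+/+ replicate 1 was the lowest of the 6 libraries, and the other Ccer1+/+ libraries were the highest. FACT, the dimer of SSRP1 and SPT16 that loosens nucleosomes for polymerases, had log2 fold changes of 0.04 for Ssrp1 and 0.14 for Supt16. Anp32e, which takes H2A.Z out of nucleosomes, and Anp32b, an acidic chaperone of the same family, had log2 fold changes of 0.09 and 0.02. The interval was wide for Anp32e, from -0.64 to 0.82, and narrow for Anp32b, from -0.26 to 0.31.

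The ratio of paralogs that can fill the same place in a complex was taken in each library for 12 pairs, as a description without a test. The ratio of Chd5 to Chd4 counts was 1.98, 1.98 and 1.71 in Ccer1-/- libraries, against 2.03, 2.60 and 2.14 in Ccer1+/+ libraries. This was the one pair of the 12 without overlap of the genotypes, and its nearest values were 1.98 in Ccer1-/- replicate 2 and 2.03 in Ccer1+/+ replicate 1. The share of other gene pairs without overlap was not taken, so this is not read as a result about the pair. The Chd5 transcript is richer in GC than that of Chd4 (57.4% and 52.9%), and the ratio was highest in Ccer1+/+ replicate 2. The ratio of Asf1b to Asf1a averaged 2.87 ± 0.167 in Ccer1-/- and 4.82 ± 2.05 in Ccer1+/+ (SD, n = 3 each), and that of Nap1l4 to Nap1l1 averaged 1.41 ± 0.102 in Ccer1-/- and 1.97 ± 0.607 in Ccer1+/+. In both pairs the GC-richer paralog was the one relatively high in Ccer1+/+ replicates 2 and 3, and replicate 1 overlapped or adjoined the Ccer1-/- libraries. The ratio of Smarcd1 to Smarcd2, whose transcripts have GC contents of 56.3% and 56.9%, was 0.537 ± 0.0565 in Ccer1-/- and 0.572 ± 0.0136 in Ccer1+/+ (SD, n = 3 each). Other pairs close in GC content varied more between libraries. Rbbp7 to Rbbp4 (44.7% and 43.8%) was 0.333 ± 0.0916 in Ccer1-/- and 0.273 ± 0.0777 in Ccer1+/+. Smarca1 to Smarca5 (39.5% and 40.7%) was 0.0698 ± 0.0209 in Ccer1-/- and 0.0562 ± 0.0172 in Ccer1+/+.

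**Figure D4:**
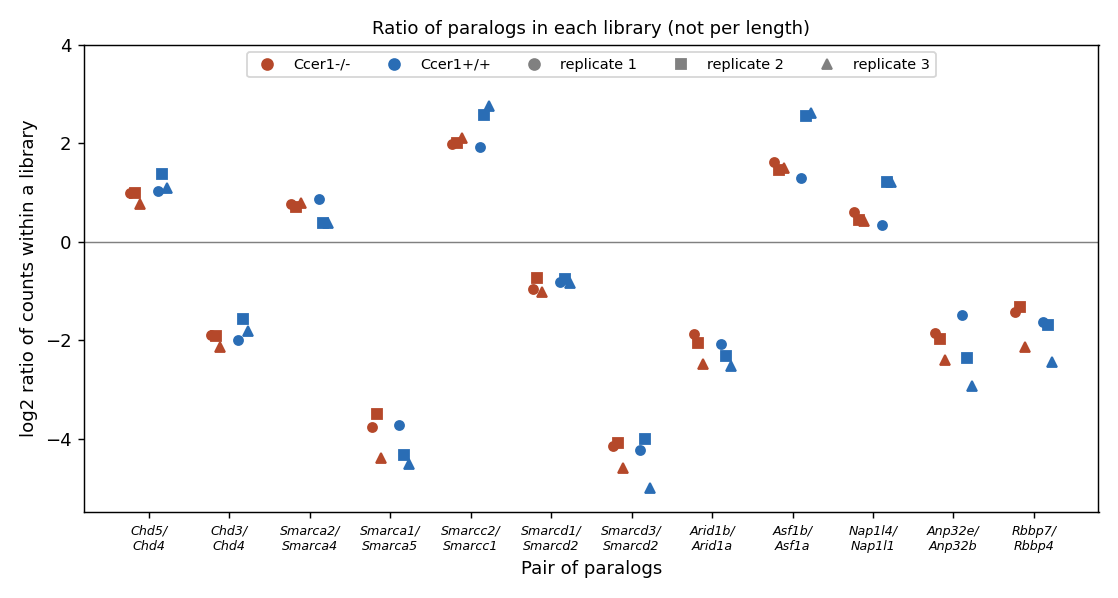
Log2 ratio of counts of 12 pairs of paralogs in each library, with Ccer1-/- left of Ccer1+/+ for each pair and the replicate given by the marker. Ratios are not per length. Chd5 over Chd4 is the one pair whose genotypes do not overlap, with no share over other gene pairs to set it against. In pairs such as Asf1b over Asf1a the squares and triangles of Ccer1+/+ stand apart from the other 4 libraries.

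The members were compared again without Ccer1+/+ replicate 1, which leaves 3 Ccer1-/- against 2 Ccer1+/+ libraries. At an adjusted p under 0.05 from edgeR, 9 members were then higher in Ccer1-/- testes (9.21% of all 15345 genes) and 8 were lower (12.5% of all genes). The 9 were Chd1, Smarcc1, Pbrm1, Smarca1, Smarca5, Smarcad1, Atrx, Asf1a and Nap1l1, with transcript GC contents of 38.6% to 48.4%. The 8 were Chd3, Chd5, Smarca4, Smarcb1, Ino80b, Srcap, Chaf1a and Npm3, with GC contents of 47.2% to 60.5%. The largest log2 fold changes of this comparison were 1.19 for Atrx and 1.18 for Smarca1. These calls rest on 2 Ccer1+/+ libraries. The library left out was singled out in these same values as nearer to the Ccer1-/- libraries than to its own group. Leaving it out therefore widens the difference between the genotypes by construction, and the calls are not read as support for a change of these members. The median absolute log2 fold change of the 49 members was 0.14 with all 6 libraries, 0.28 without Ccer1+/+ replicate 1 and 0.08 with all 6 libraries and the curve on GC content and length removed.

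**Figure D5:**
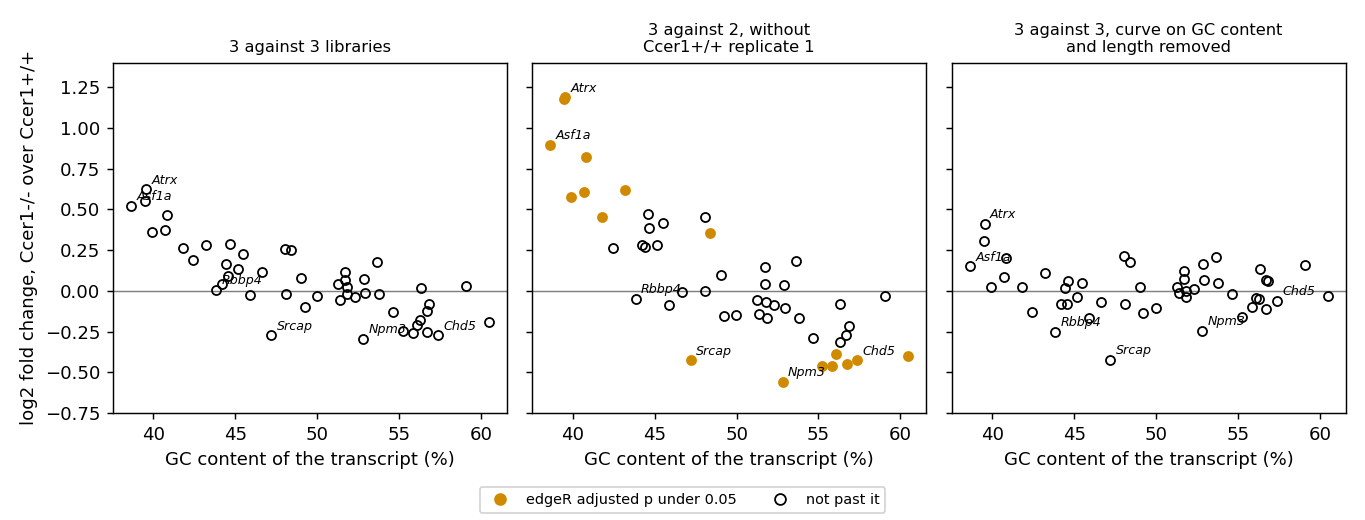
Log2 fold change (Ccer1-/- over Ccer1+/+) of the 49 members against the GC content of the transcript in 3 comparisons. Filled points passed an adjusted p under 0.05 from edgeR. There are 0 with all libraries, 9 above and 8 below the zero line without Ccer1+/+ replicate 1, and 0 with the curve removed, and the slope from upper left to lower right is nearly gone in the last panel, which removing the curve brings about by construction.

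The partners of the members in the same complexes were read as a second list of 76 genes, of which 71 were tested. At an adjusted p under 0.05 from edgeR 0 of them changed, 34 log2 fold changes were positive and 37 negative, and the median was -0.02. Ruvbl2, an AAA+ ATPase of the INO80, SRCAP and TIP60 complexes, was at 215, 223 and 221 CPM in Ccer1-/- libraries, against 197, 411 and 346 CPM in Ccer1+/+ libraries. Ccer1+/+ replicate 1 was the lowest of all 6 libraries and the other two the highest, and the log2 fold change was -0.53 (adjusted p = 0.786, edgeR). Mbd3, a core subunit of NuRD, had a log2 fold change of -0.48, and Ipo4, an importin that carries H3 and H4 into the nucleus, had one of -0.35. Actr6, an actin-related subunit of the SRCAP complex, had a log2 fold change of 0.56, and those of Ercc6l and Hltf, ATPases of the SNF2 family, were 0.61 and 0.55. The adjusted p was 0.786 for these 5 genes. Of the 71 partners, 1 was above in Ccer1-/- without overlap of the genotypes (5.2% of all genes) and 1 was below (3.14% of all genes). The one above was Ercc6l, at 4.36, 3.46 and 3.64 CPM in Ccer1-/- libraries, against 3.09, 2.72 and 1.65 CPM in Ccer1+/+ libraries. The one below was Cabin1, which encodes a subunit of the HIRA chaperone complex, at 45.9, 50.0 and 43.2 CPM in Ccer1-/- libraries, against 50.2, 54.3 and 56.1 CPM in Ccer1+/+ libraries, with a log2 fold change of -0.21 (adjusted p = 0.786, edgeR). Cabin1 was named after its values were seen.

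The binding motif of cyclic AMP response factors, TGACGTCA, which reads the same on both strands, was looked for in RefSeq promoter windows of 300 bases that span the start of transcription (build GRCm38.p6), because CREM drives many genes of spermatids. Windows were at hand for 39 of the 49 members. The motif was in 0 of 47 windows of these members and in 1.79% of 32851 windows of all genes, which says only that these letters are not in these windows.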

How the data were processed

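Sequencing of testis RNA (3 Ccer1-/- and 3 Ccer1+/+ libraries, grouped by their labels) was analysed from the deposited tables, in which the authors give an estimated count per Ensembl gene and library, 89.9% of them whole numbers, without scaling. Tools listed in the submitters' processing notes are fastp (0.18.0), HISAT2 (no version), StringTie (1.3.1) and Bowtie2 (2.2.8), with GRCm38 as the build. How reads were counted is not given there. Reads that fit several genes could be shared between them, which touches Rbbp4, Srcap, Asf1a, Chaf1a and Supt16 among the members, whose counts were in part fractional. The 5 Hi-C samples of sperm were not analysed here.

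Counts were rounded. Genes were kept with filterByExpr of edgeR 4.0.16 in R 4.3.3 (minimum count 10, minimum total 15), libraries were scaled by TMM, and genotype was tested with a robust two-sided quasi-likelihood F test without covariates. The Benjamini-Hochberg adjustment ran over all 15139 genes. Standard errors were derived from the log2 fold change and F, and 95% intervals from the t distribution. The script was tested on simulated data. Transcript length and GC content are those of the longest coding transcript of GENCODE M1 (NCBIM37), and positions are RefSeq positions in GRCm38.p6. Counting error is part of the spread between libraries, and relative to the level it is largest for the members with under 100 counts in a library (Smarcd3, Smarca1 and Atrx).

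Alternatives were the size factors and the test of DESeq2 1.42.0, no filter, a block for the replicate number, a curve on GC content and length taken out of every library (natural splines, 5 degrees of freedom), and each library left out in turn. Values in every library are given for Chd5, the 3 members with the smallest p in each direction, and in each family the members with the highest level per length and with the smallest p, and of the partner genes the 3 with the smallest p in each direction are named. The members, lists and rules were chosen with earlier results of these data known.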

Additional observations from a re-analysis of the deposited data

How the results depend on the processing

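Ccer1 kept its direction and stayed past the threshold under every alternative run, with log2 fold changes from -2.77 to -2.51. At an adjusted p under 0.05, 0 members were higher and 0 were lower under each alternative that kept all 6 libraries. Leaving out one library gave 0 to 9 higher and 0 to 8 lower, and the 9 and 8 came from leaving out Ccer1+/+ replicate 1, while each of the other 5 libraries left out gave 0 and 0. At an unadjusted p under 0.05, leaving out one library gave 0 to 13 members higher and 0 to 11 lower. The 13 and 11 again came without Ccer1+/+ replicate 1, and Chd5 was lost without any of the other 5. Without Ccer1+/+ replicate 1, 9.21% of all genes were higher and 12.5% lower even at an adjusted p under 0.05 from edgeR. The share of all genes at the unadjusted threshold was not taken there, so the 13 and 11 are not read as a result about the members. The median member log2 fold change ran from -0.056 to 0.0020 over the libraries left out and was -0.011 with the size factors of DESeq2, so its sign is not settled.

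Replicate numbers were not treated as pairs. The deviations of same-numbered libraries from their group means correlated at 0.05, 0.32 and 0.43, and Ccer1-/- replicate 1 correlated better with Ccer1+/+ replicate 2 (0.25) than with its own number. With the replicate block, 3 members (Smarcad1, Atrx and Asf1a) were higher and 0 lower at an unadjusted p under 0.05, beside 4.55% and 1.78% of all genes, and 0 passed an adjusted p under 0.05.

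Of the 20 genes named with all their values or as partners, some with changes near 0 changed sign. With the curve on GC content and length removed, log2 fold changes were 0.013 for Smarca2, -0.25 for Rbbp4, -0.070 for Ino80c and -0.13 for Npm1. With the size factors or the test of DESeq2, Rbbp4 was at -0.034. Over the libraries left out, Rbbp4 ranged from -0.061 to -0.047, Ino80c from -0.025 to 0.18 and Nasp from -0.020 to 0.42. The cause was not tested. Among the members, Atrx and Smarca1 had the widest intervals, from -0.23 to 1.48 and from -0.39 to 1.50 on the log2 scale. Changes inside these bounds are not excluded by 3 libraries a genotype. Both genes had few counts, but Smarcd3, with the fewest in every library but Ccer1+/+ replicate 2, had a narrower interval, from -0.63 to 0.69. Without Ccer1+/+ replicate 1 the standard error was 0.21 for Atrx and 0.26 for Smarca1, against 0.38 and 0.42 with all 6 libraries.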
